A study of Mus musculus with 8 samples.

Results

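Hemoglobin transcripts and 2 further red cell genes were examined in RNA from embryonic mouse hippocampi. The 9 genes were Hba-a1, Hba-a2, Hba-x, Hbb-bs, Hbb-bt, Hbb-y, Hbb-bh1, Alas2 and Slc4a1. They were chosen by symbol, all 9 were found among the 16397 genes of the count table, and all 9 passed the filter on low counts. The samples were 8 hippocampi of C57Bl/6J mouse embryos at embryonic day (E) 15.5, of both sexes. In 4 of them (T1-1, T1-3, T1-4 and T1-5), intrauterine growth restriction (IUGR) had been produced through maternal hypertension, by a micro-osmotic pump that gave the pregnant dam U-46619, a thromboxane A2 analog, from E12.5. The other 4 (S1-4, S1-6, S3-1 and S3-4) were sham controls, whose dams received a pump with vehicle at E12.5, so dams of both groups had surgery. The labels give no difference in genotype. All IUGR names start with T1 and the sham names with S1 or S3. What these prefixes mark is not given in the sources used here, so if a prefix marks a dam or a litter, that dam and the treatment cannot be told apart, and p values measure only the spread between these samples. No step to clear fetal blood from the dissected tissue is described in the sources used here. In bulk RNA, fewer red cells and less RNA per red cell cannot be told apart.

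Hemoglobin carries oxygen as a tetramer of a pair of α-type and a pair of β-type chains, each holding a heme group. In the mouse, the first red cells arise in the yolk sac as large nucleated primitive cells that make the embryonic chains, ζ from Hba-x, εy from Hbb-y and βh1 from Hbb-bh1. Smaller definitive red cells from the fetal liver then take over the circulation and make the adult chains from Hba-a1, Hba-a2, Hbb-bs and Hbb-bt. Alas2 is the red cell form of the enzyme that starts heme synthesis, and Slc4a1 (band 3) is the anion exchanger of the red cell membrane. Young red cells still carry much globin RNA, so blood in the vessels of a tissue contributes to its RNA.

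The start of each coding sequence is shown because it tells which of these genes a sequencing read can separate. The first 60 coding bases are given from the start codon, as in the GENCODE M21 transcripts (GRCm38). Capitals mark bases that differ from Hba-a1 in the α family, or from Hbb-bs in the β family, at the same position without gaps.
Hba-a1: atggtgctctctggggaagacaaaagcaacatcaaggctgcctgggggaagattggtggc
Hba-a2: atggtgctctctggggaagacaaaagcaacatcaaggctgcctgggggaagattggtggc
Hba-x: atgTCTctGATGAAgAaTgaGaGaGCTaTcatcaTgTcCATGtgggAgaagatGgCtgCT
Hbb-bs: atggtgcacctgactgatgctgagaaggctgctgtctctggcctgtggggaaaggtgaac
Hbb-bt: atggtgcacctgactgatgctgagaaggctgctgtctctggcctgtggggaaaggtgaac
Hbb-y: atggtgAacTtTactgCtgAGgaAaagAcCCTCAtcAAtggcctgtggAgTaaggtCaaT
Hbb-bh1: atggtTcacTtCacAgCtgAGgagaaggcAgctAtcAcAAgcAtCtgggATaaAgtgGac
Within these 60 bases, Hba-a1 and Hba-a2 had no difference, nor did Hbb-bs and Hbb-bt. Hba-x differed from Hba-a1 at 28 positions, Hbb-y from Hbb-bs at 19 and Hbb-bh1 from Hbb-bs at 18.

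Over the whole coding sequence, the adult copies differed at 1 of 426 bases in the α pair and also at 1 base in the β pair. Of the stretches of 50 bases in the Hba-a1 transcript, 67.5% (439 of 650) also occurred in Hba-a2. For Hbb-bs and Hbb-bt the shared portion was 65.8% (381 of 579). How the deposited counts split such reads is not given in the sources used here, so the values of single adult copies are uncertain and their sums were also compared. Hbb-y had 74.4% coding identity with Hbb-bs, and Hba-x had 64.7% with Hba-a1, with no shared stretch of 50 bases in either pair.

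The globin genes lie in 2 clusters, with the embryonic genes upstream of the adult genes in each. In GRCm38 the α-type genes are on the plus strand of chromosome 11, with Hba-x at 32276400 to 32278116, Hba-a1 at 32283511 to 32284465 and Hba-a2 at 32296489 to 32297298. On the minus strand of chromosome 7 lie Hbb-y at 103851749 to 103853216, Hbb-bh1 at 103841637 to 103843164, Hbb-bs at 103826534 to 103828096 and Hbb-bt at 103812524 to 103813996. Slc4a1 is at 102348824 to 102366203 on the minus strand of chromosome 11, far from the α-type genes. Alas2 is on the plus strand of chromosome X at 150547375 to 150570638 and overlaps Apex2, so some of its counts could come from that gene. Its Ensembl identifier is ENSMUSG00000025270, and those of the others stand with their values.

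Globin RNA was present in every hippocampus. The 7 globin genes took 0.0958% to 0.148% of all counts in the sham group and 0.0598% to 0.205% in the IUGR group. The IUGR group held both extremes of this share, with T1-3 highest and T1-4 lowest. Total counts per sample ran from 11212632 to 16672463. The labelled tissue was checked with 12 hippocampal and pallial markers, all of which were detected in every sample. Their summed level, to which the neuronal genes Tubb3 and Dcx gave the largest amounts, was 3513 to 3987 counts per 1000000 counts of the library (CPM) in sham and 3786 to 4145 in IUGR hippocampi. Of the 12 markers, 9 had a log2 fold change below 0 (median -0.26) and none was called, whereas those of Tubb3 and Dcx were above 0. Single regional markers varied several-fold between samples, with Neurod6 at 72.5 (S1-4) to 507 CPM (S3-1), Tbr1 at 11 (S1-4) to 106 CPM (T1-3) and Emx2 at 14.6 (T1-5) to 92.9 CPM (S3-4). The part of such differences in the globin levels was not tested.

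The most abundant globin per length was Hbb-bs, with a mean level over the 8 samples of 737 CPM per kb of exon. Embryonic Hbb-y came next at 597 CPM per kb, and Hbb-bs was above it in 6 of 8 samples (all but S3-4 and T1-4), so the top of the order was not the same in every sample. Hbb-bt (375 CPM per kb), Hba-a1 (147) and Hba-a2 (92.2) followed, each above the next in 8 of 8 samples. Hba-x was at 28.0 CPM per kb, above Alas2 (16.1) in all samples but S3-1. Hbb-bh1 was at 4.44 CPM per kb and exceeded Slc4a1 (3.61) in all samples but S1-4. Among β-type embryonic counts, Hbb-bh1 made up only 0.451% to 0.953%, so nearly all the embryonic β-type signal was Hbb-y. The α-type genes together gave 10.4% to 17.3% of globin counts.

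None of the 9 genes was called different between IUGR and sham hippocampi, where a call needed both an edgeR adjusted p no higher than 0.05 and a log2 fold change of 1 or more in size. Over all 13707 protein-coding genes tested, 1.46% were called. All 9 log2 fold changes were above 0 (median 0.458), against 44.5% of all tested genes and a median of -0.023 over them. Several of the genes had similar orders of the samples, so these are not 9 separate observations. The Spearman correlation with the summed adult globins was 0.857 for both Hbb-y and Alas2, and 0.643 for Slc4a1. For the adult globins, which are part of that sum, it was 0.738 (Hba-a1) or higher. Endothelial, microglial and meningeal marker lists, given further on, also had most or all of their log2 fold changes above 0. All 10 tested choroid plexus markers had theirs below 0. The part of these lists in the globin changes was not tested. No gene had an unadjusted p under 0.05, against 11.1% of all genes, and DESeq2's Wald test and limma-voom also called none. In each of the 9 genes the IUGR range overlapped the sham range, whereas 7.14% of all tested genes had groups that did not overlap. The fold changes ranged from 0.19 to 0.68 on the log2 scale, and their 95% intervals from -0.61 (Hbb-bs) to 1.54 (Hbb-bh1), so these samples do not separate no change from a change within its gene's interval.

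**Figure D1:**
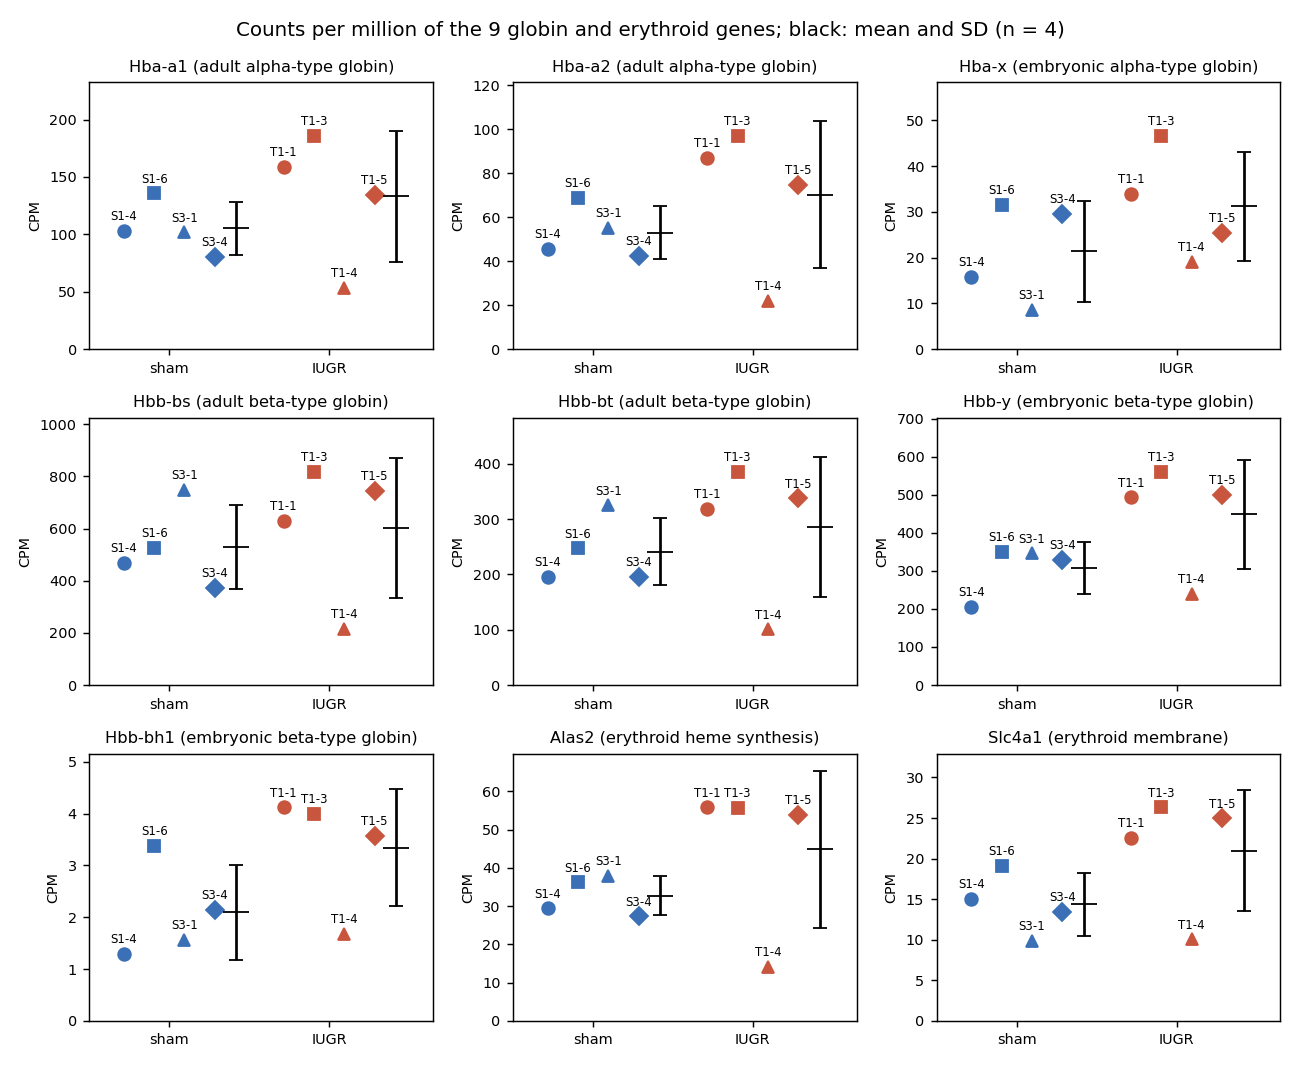
CPM of each of the 9 genes (y axes, linear, each with its own range from 0) in the 4 sham (blue) and 4 IUGR (red) hippocampi, with the group mean and SD in black. T1-4 is the lowest IUGR sample in all 9 panels, while T1-1, T1-3 and T1-5 lie at or above the upper part of the sham range in most of them.

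Of the adult α-type genes, Hba-a1 (ENSMUSG00000069919) was at 103, 136, 102 and 80.6 CPM in sham hippocampi S1-4, S1-6, S3-1 and S3-4. In IUGR hippocampi T1-1, T1-3, T1-4 and T1-5 it was at 159, 186, 53.4 and 135 CPM. T1-1 and T1-3 were above every sham sample and T1-4 was below every one. The means were 133 ± 57.2 CPM in IUGR and 105 ± 22.8 in sham (SD, n = 4 each), with an edgeR log2 fold change of 0.34 (SE 0.32, adjusted p = 0.96). Hba-a2 (ENSMUSG00000069917) was at 45.4, 68.8, 55.1 and 42.2 CPM in sham, and 86.9, 97.0, 21.99 and 74.5 CPM in IUGR samples in the same order. T1-1, T1-3 and T1-5 were above every sham sample and T1-4 was below every one. Its log2 fold change was 0.41 (SE 0.37, edgeR adjusted p = 0.954). With the copies summed, the adult α-type log2 fold change was 0.36 (SE 0.33, edgeR adjusted p = 0.956). Hba-a1 made up 64.4% to 70.8% of the adult α-type counts in the 8 samples.

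Of the adult β-type genes, Hbb-bs (ENSMUSG00000052305) was at 469, 525, 750 and 374 CPM in the sham samples S1-4, S1-6, S3-1 and S3-4. In T1-1, T1-3, T1-4 and T1-5 it was at 630, 819, 215 and 746 CPM. Only T1-3 was above the highest sham sample, S3-1, and T1-4 was again below all sham samples. Hbb-bs had the smallest change of the 9 genes, with a log2 fold change of 0.19 (SE 0.36, edgeR adjusted p = 1.0) between 602 ± 270 CPM in IUGR and 529 ± 160 in sham (SD, n = 4 each). Hbb-bt (ENSMUSG00000073940) was at 196, 247, 325 and 196 CPM in sham and at 319, 386, 101 and 338 CPM in IUGR samples. T1-3 and T1-5 exceeded all sham samples, T1-1 lay just under S3-1, and T1-4 was lowest. The log2 fold change of Hbb-bt was 0.25 (SE 0.35, edgeR adjusted p = 1.0), and that of the summed pair was 0.20 (SE 0.36, edgeR adjusted p = 0.999). The copies kept a near constant ratio, with Hbb-bs at 65.6% to 70.5% of adult β-type counts.

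The embryonic β-type gene Hbb-y (ENSMUSG00000052187) was at 206, 351, 346 and 328 CPM in S1-4, S1-6, S3-1 and S3-4, and at 493, 561, 240 and 499 CPM in T1-1, T1-3, T1-4 and T1-5. S1-6, S3-1 and S3-4 lay close together and S1-4 was lower. The other sham samples and T1-4 were well below T1-1, T1-3 and T1-5, although T1-4 was above S1-4. The means were 449 ± 142 CPM in IUGR and 308 ± 68.7 in sham (SD, n = 4 each), a 1.46-fold difference with a 95% interval of 0.977 to 2.17-fold (edgeR unadjusted p = 0.0623, adjusted p = 0.496). Hbb-y had the smallest unadjusted p of the 9 genes, and in an exact two-sided permutation test of its CPM the p was 0.114, where the smallest possible with 4 against 4 samples is 0.0286.

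Hbb-bh1 (ENSMUSG00000052217), the earlier of the embryonic β-type genes, was near the lower end of what these libraries could measure, with 14 to 65 counts per sample. It was at 1.29, 3.38, 1.57 and 2.14 CPM in sham and at 4.12, 4.00, 1.69 and 3.57 CPM in IUGR samples in the same order. T1-1, T1-3 and T1-5 were above all sham samples, S1-6 was close under them, and T1-4 lay within the lower sham values. It had the largest log2 fold change of the 9, 0.68 (SE 0.39, edgeR adjusted p = 0.667).

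The embryonic α-type gene Hba-x (ENSMUSG00000055609) varied most, relative to its mean, among sham samples, at 15.7, 31.6, 8.55 and 29.6 CPM in S1-4, S1-6, S3-1 and S3-4. It was at 33.9, 46.7, 19.1 and 25.3 CPM in T1-1, T1-3, T1-4 and T1-5. S3-1, which had the highest adult β-type levels of the sham group, had the lowest Hba-x of all 8 samples, and T1-4 was not below the sham range. Means were 31.2 ± 11.9 CPM in IUGR and 21.4 ± 11.1 in sham (SD, n = 4 each), and the log2 fold change was 0.55 (SE 0.40, edgeR adjusted p = 0.84).

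Alas2, the heme synthesis enzyme of red cells, was at 29.4, 36.2, 37.9 and 27.3 CPM in sham and at 55.8, 55.7, 14.2 and 53.8 CPM in IUGR samples in the same order. T1-1, T1-3 and T1-5 lay close together and above every sham sample, while T1-4 was below every one. The log2 fold change was 0.46 (SE 0.36, edgeR adjusted p = 0.883). Relative to globin RNA, Alas2 varied less, with 23.9 to 28.4 counts per 1000 globin counts in sham and 21.7 to 32.3 in IUGR samples. Slc4a1 (ENSMUSG00000006574) was at 15.0, 19.1, 9.81 and 13.5 CPM in sham and at 22.6, 26.3, 10.03 and 24.9 CPM in IUGR samples. Again T1-1, T1-3 and T1-5 were above all sham samples, and T1-4 was just above S3-1. The log2 fold change of Slc4a1 was 0.55 (SE 0.30, edgeR adjusted p = 0.633). Per 1000 globin counts, Slc4a1 was at 6.18 in S3-1, the lowest of the 8 samples, and at up to 15.4 (T1-4) in the others.

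T1-4 set much of the spread in the IUGR group. It was the lowest IUGR sample for 9 of 9 genes and the lowest of all 8 samples for 5 (Hba-a1, Hba-a2, Hbb-bs, Hbb-bt and Alas2), whereas T1-3 was the highest of all samples for 7. Without T1-4, 7 of the 9 genes had an unadjusted p under 0.05, against 11.6% of all genes in that comparison, and still none was called. The lowest adjusted p was then that of Alas2 (log2 fold change 0.75, SE 0.16, edgeR adjusted p = 0.0599), followed by Hbb-y (0.75, SE 0.19, edgeR adjusted p = 0.107) and Hba-a2 (0.70, SE 0.19, edgeR adjusted p = 0.132). Hbb-bs and Hba-x stayed above an unadjusted p of 0.05, at 0.0641 and 0.103. T1-4 bears an IUGR label like the others, so it belongs in the comparison. Without T1-3 instead, the log2 fold changes ran from 0.03 (Hbb-bs) to 0.60 (Hbb-bh1).

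**Figure D2:**
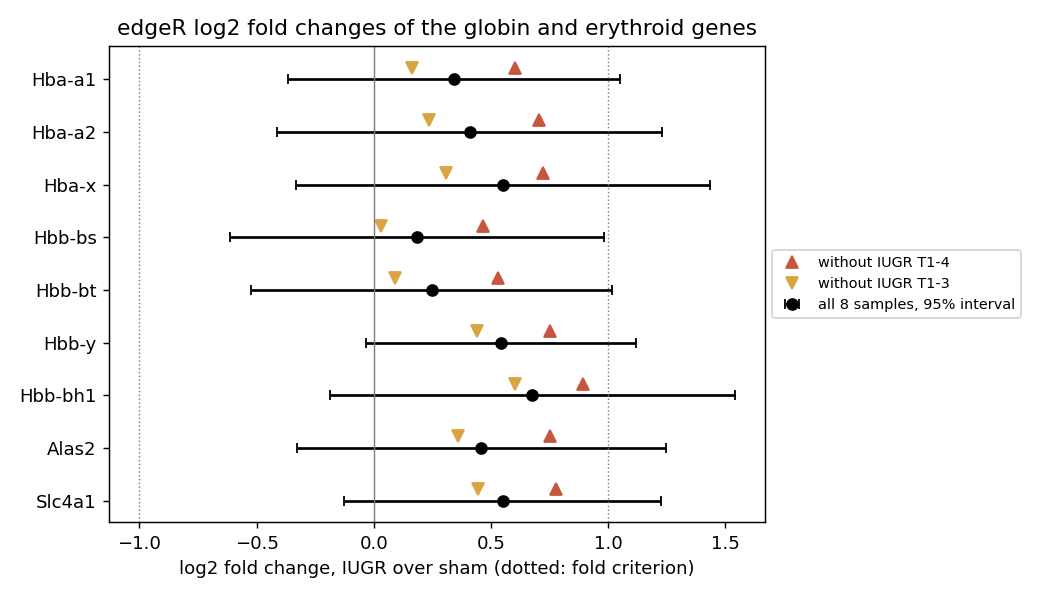
edgeR log2 fold changes of IUGR over sham for the 9 genes with all 8 samples (black, 95% interval), without T1-4 (red) and without T1-3 (yellow). All intervals include 0, and the value without T1-4 is higher than the value with all samples for each gene.

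The adult and embryonic classes were then set beside each other within each sample, as shares of counts that do not depend on the size of the library. Hbb-y and Hbb-bh1 made up 23.7% of β-type globin counts in S1-4 (95% Clopper-Pearson interval 22.9 to 24.6), 31.5% in S1-6 (30.7 to 32.3), 24.5% in S3-1 (23.8 to 25.1) and 36.7% in S3-4 (35.9 to 37.6). In IUGR samples they made up 34.4% in T1-1 (33.7 to 35.1), 31.9% in T1-3 (31.4 to 32.5), 43.4% in T1-4 (42.2 to 44.6) and 31.7% in T1-5 (31.1 to 32.3). The sample with the least globin, T1-4, thus had the highest embryonic share, and the other IUGR samples lay between S1-6 and S3-4. The intervals cover counting error only, and the spread between samples was far wider.

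The mean embryonic β-type share was 35.4 ± 5.48% in IUGR and 29.1 ± 6.16% in sham (SD, n = 4 each), a difference of 6.26 percentage points that is about the size of the SD within either group. Without T1-4 the difference was 3.59 points. Set against the sham samples of prefix S1 alone it was 7.75 points, and against those of prefix S3 alone 4.77 points. The sham samples of 1 prefix differed from each other by more than the groups did.

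For the α-type genes, Hba-x made up 9.58% of counts in S1-4 (95% Clopper-Pearson interval 8.25 to 11), 13.4% in S1-6 (12.1 to 14.7), 5.17% in S3-1 (4.26 to 6.2) and 19.4% in S3-4 (17.8 to 21.2). It made up 12.1% in T1-1 (11.1 to 13.2), 14.2% in T1-3 (13.2 to 15.1), 20.2% in T1-4 (17.9 to 22.7) and 10.8% in T1-5 (9.73 to 12). T1-4 and S3-4 were highest in both the α-type and the β-type share, and S1-4 and S3-1 were lowest in both. The means were 14.3 ± 4.17% in IUGR and 11.9 ± 6.04% in sham (SD, n = 4 each). That difference, 2.43 points, was smaller than the SD of either group, and fell to 0.465 points without T1-4 and 0.196 without S3-1, and was 4.95 points without S3-4.

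**Figure D3:**
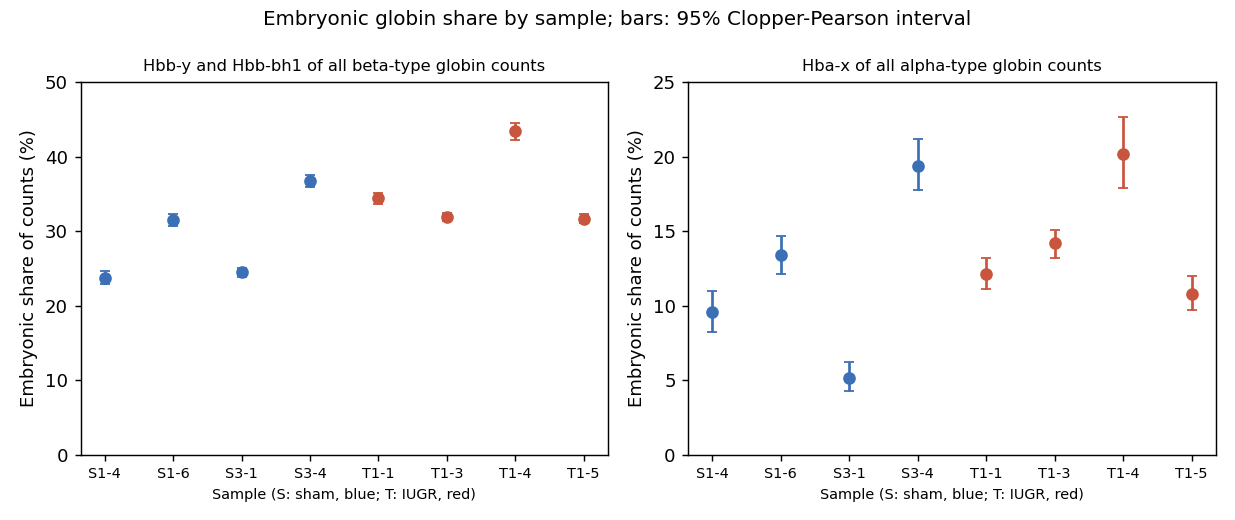
Embryonic share of β-type (left) and α-type (right) globin counts in percent for each sham (blue) and IUGR (red) sample, with 95% Clopper-Pearson intervals. T1-4 is highest on both sides, at 43.4% and 20.2%, and the remaining IUGR samples lie inside the sham range.

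In absolute level, the adult genes summed to 1091 ± 483 CPM in IUGR and 928 ± 233 in sham, a ratio of 1.18. The embryonic genes summed to 483 ± 153 CPM in IUGR and 331 ± 73.5 in sham (SD, n = 4 each), a ratio of 1.46. The adult sum differed nearly 4-fold between T1-3 (1488 CPM) and T1-4 (391 CPM), while the embryonic sum of T1-4 (261 CPM) was above that of S1-4 (223 CPM). These sums are descriptions of the same counts as above, with no further test.

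Other red cell genes, other members of the globin family and genes that clear hemoglobin were examined as lists of what they do. Of 67 such genes, 56 were in the table and 50 were tested, of which 28 had a log2 fold change above 0 (median 0.045) and 1, Tspan33, was called. Of all tested genes, 44.5% had a log2 fold change above 0 and 1.46% were called, so a single call among 50 is near the general share. Many of the 50 are also active outside red cells, so their levels in hippocampus are not a measure of blood alone.

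Of 15 heme synthesis and iron delivery genes, 7 had a log2 fold change above 0 and none was called (median -0.01). The most abundant was Tfrc, the transferrin receptor, at 255 ± 57.0 CPM in IUGR and 237 ± 72.2 in sham (SD, n = 4 each). Alas1, the housekeeping counterpart of Alas2, had a log2 fold change of -0.01 (SE 0.13, edgeR adjusted p = 1.0), and Fech, which inserts iron into the ring, 0.08 (SE 0.17). Abcb10, a mitochondrial transporter needed for hemoglobin making and named after its values were seen, was the exception whose groups did not overlap, at a log2 fold change of 0.45 (SE 0.15, edgeR adjusted p = 0.222), with T1-4 at 35.90 CPM just above S3-4 at 35.86 CPM. It also overlaps another annotated gene, Gm20388.

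Of 13 tested membrane and skeleton genes, 9 had a log2 fold change above 0 and none was called (median 0.34). The abundant members Epb41 (-0.01, SE 0.16) and Add2 (0.14, SE 0.11) were near 0 on the log2 scale. Among genes named after their values were seen, Dmtn, which bundles actin in the red cell skeleton, was at 9.24, 12.47, 10.98 and 8.34 CPM in S1-4, S1-6, S3-1 and S3-4, and at 14.6, 30.4, 15.2 and 16.6 CPM in T1-1, T1-3, T1-4 and T1-5. Every IUGR sample, T1-4 included, was above every sham sample, but Dmtn was not called (log2 fold change 0.91, SE 0.26, edgeR adjusted p = 0.149).

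Of 9 tested erythroid transcription factors, 4 had a log2 fold change above 0 and none was called (median -0.07). The most abundant, Ldb1 (-0.07, SE 0.14), Bcl11a (-0.16, SE 0.15) and Sox6 (0.04, SE 0.18 on the log2 scale), are also active in neurons or their progenitors. Klf1 and Gata1 were near the floor. Klf1, the factor that opens the adult β-type gene, had 6 to 27 counts per sample, and Gata1 had 0 to 10 counts and was not tested. Both are active in nucleated erythroid precursors.

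Among 7 tested genes with other red cell roles, Bnip3l, which clears mitochondria, and Bpgm, which makes the oxygen affinity regulator of red cells, had log2 fold changes of -0.07 (SE 0.14) and 0.13 (SE 0.14). Tspan33, a tetraspanin linked to red cell production and also found in other cells, was the called gene, and it was lower in IUGR. It was at 11.9, 14.02, 9.49 and 12.4 CPM in the sham samples and at 5.47, 6.39, 4.47 and 5.70 CPM in the IUGR samples, with no overlap (log2 fold change -1.11, SE 0.20, edgeR adjusted p = 0.0276). Of the 200 genes called in all, 186 were lower in IUGR and 14 higher, so a lower call was the usual direction. Hemgn, a nuclear protein of blood precursors named after its values were seen, had 2 to 37 counts and lay between 0.143 and 0.462 CPM in sham and between 0.532 and 2.27 CPM in IUGR samples (log2 fold change 2.15, SE 0.61, edgeR adjusted p = 0.135).

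Of the genes that deal with free heme and hemoglobin, none of 5 tested was called (median 0.045). Lrp1, a receptor that also takes up heme bound to its carrier, and Hmox2, the constitutive heme oxygenase, had log2 fold changes of 0.04 (SE 0.28) and -0.05 (SE 0.12). Hmox1, the inducible heme oxygenase, named after its values were seen, had 45 to 233 counts per sample and a log2 fold change of 0.55 (SE 0.33, edgeR adjusted p = 0.713). The hemoglobin scavengers Hp and Cd163 had 0 to 12 and 0 to 16 counts and were not tested. Of the brain's own globins, Cygb (cytoglobin) had a log2 fold change of -0.16 (SE 0.29), and Ngb (neuroglobin) had 2 to 17 counts per sample and was not tested.

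Over the 8 samples, genes whose log2 CPM was among the most like the log2 sum of the adult globins were Dapp1 (Pearson r = 0.955), Ado (0.944), Fbxo7 (0.942), Klhl36 (0.94), Saysd1 (0.929) and Atrnl1 (0.925), of 11899 candidate genes whose mean count reached 50. They are given as a description of 8 points that share their libraries. T1-4 was the lowest sample for each of these genes. Among the genes studied here, and apart from the adult globins in the sum, Alas2 had r = 0.966, Hbb-y 0.77, Slc4a1 0.668, Hbb-bh1 0.583 and Hba-x 0.207.

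Markers of other cell types also differed among the samples. Summed over the 9 genes, the level was 1081 to 1635 CPM in sham and 676 (T1-4) to 2182 (T1-3) CPM in IUGR samples. Endothelial markers, 12 of 12 tested with 10 above 0 (median log2 fold change 0.51) and none called, summed to 248 to 366 CPM in sham and 261 to 460 CPM in IUGR samples, with T1-3 highest and T1-4 second lowest of all. Platelet and megakaryocyte markers, 4 tested of 8 with none called, summed to 30.1 to 40.7 CPM in sham and 40.1 to 64.8 in IUGR samples. Here T1-4 was second highest, at 45.2 CPM, of which Gp1bb gave 38.8. Gp1bb gave most of the sum in every sample and overlaps Sept5, so some of its counts could come from that gene. In T1-4, Pf4 was at 1.60 CPM (sham 0.285 to 3.22) and Itga2b at 2.36 CPM (sham 3.72 to 6.01). Ppbp was at 2.44 CPM there (sham 0.570 to 1.29). Microglia and macrophage markers, 10 of 10 tested with 10 above 0 (median log2 fold change 0.31) and none called, ran from 82.4 to 116 CPM in sham and from 73.3 (T1-4) to 285 (T1-3) CPM in IUGR samples.

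Tissues that border the hippocampus differed more. Of 12 choroid plexus markers 10 were tested, with 10 below 0 (median log2 fold change -3.07). Of these, 3 were called lower (Folr1, Cldn2 and Otx2), against 1.46% of all tested genes called. All 10 had an edgeR unadjusted p under 0.05, against 11.1% of all tested genes. In 8 the groups did not overlap, against 7.14% of all tested genes. The list summed to 5448 to 12030 CPM in sham and 54.7 (T1-4) to 1288 (T1-3) CPM in IUGR samples, with T1-1 at 79.0 and T1-5 at 872 CPM. Most of the sham sum was Ttr (4550 to 10850 CPM in sham, 10.2 to 966 CPM in IUGR samples), whose mean count was too high for the filter, so it was not tested. Without Ttr the list summed to 808 to 1178 CPM in sham and 44.5 (T1-4) to 322 (T1-3) CPM in IUGR samples. Meningeal fibroblast markers, 8 of 8 tested with 8 above 0 (median log2 fold change 1.20) and none called, summed to 264 to 536 CPM in sham and 70.3 (T1-4) to 2751 (T1-3) CPM in IUGR samples. T1-4 was therefore the lowest of all samples, and T1-3 the highest of the IUGR samples, in globin and erythroid genes, in choroid plexus, in meningeal and in microglial markers alike. The part of these tissues in the globin levels was not tested. The 9 genes summed to 1804 CPM in T1-1 and 1899 CPM in T1-5.

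**Figure D4:**
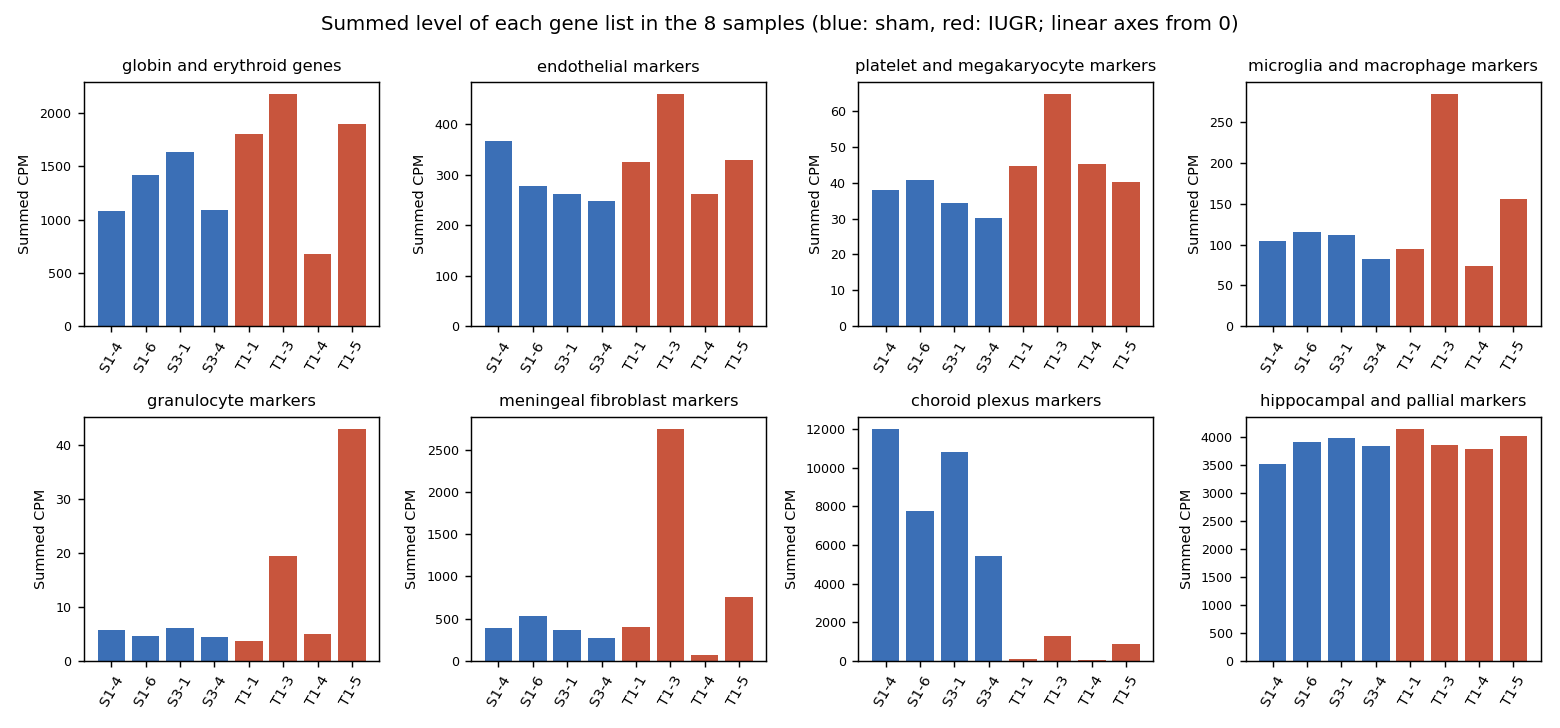
Summed CPM (y axes, linear from 0) of the 9 globin and erythroid genes and of 7 marker lists in each sham (blue) and IUGR (red) sample. T1-4 is lowest for globin and erythroid, microglial, meningeal and choroid plexus genes, and the hippocampal and pallial sum, to which Tubb3 and Dcx give the largest amounts, lies between 3513 and 4145 CPM.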

How the data were processed

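The authors sequenced total RNA after ribosomal RNA depletion (stranded kit, single reads) and deposited raw read counts per gene for 8 samples. The submitters' processing notes name Novoalign 2.8 and mm10 (GRCm38), and the counting program, annotation release and strand setting are not given in the sources used here. GENCODE M21 annotated 16124 of the 16397 genes through their Ensembl identifiers. Protein-coding genes whose mean count was 10 or more and below 50000 were compared with edgeR 4.0.16 (TMM, quasi-likelihood test, R 4.3.3) with Benjamini-Hochberg adjustment over all 13707. CPM used TMM-adjusted library sizes. On simulated data for this comparison, 200 of 200 genes changed 4-fold were recovered, with 3 false calls. Exact permutation tests used scipy 1.17.1, and coding sequences were aligned with Biopython 1.88. Named genes were all 9 members, called genes and the most abundant members of each list (up to 4 per list), genes at the floor, and the 8 genes most like the adult globins, of which some are not reported here. Members and lists were chosen with earlier results of these data known. Alternatives were 2 other normalizations, DESeq2 1.42.0, limma-voom (limma 3.58.1), other count filters, summed copies, adjusted p alone, 1 prefix of sham samples alone, and each sample left out. Hbb-bh0, Hbb-bh2, Hbq1a, Hbq1b and Mb were not analysed here.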

Additional observations from a re-analysis of the deposited data

Results flagged for a closer look

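In 22 groups of 4 samples (the CPM of each of the 9 genes and the embryonic shares, by group), the distance of the highest and the lowest sample from its neighbor was checked with Dixon's criterion, which chance meets in about 1 in 20 groups. It was met in 2. Hbb-y in the sham group was lowest in S1-4, at 206 CPM, where the gap to the next sample took 0.842 of the group's range. Alas2 in the IUGR group was lowest in T1-4, at 14.2 CPM, where the gap took 0.952 of the range. T1-4 was the lowest IUGR sample for the other 8 genes as well, with gaps that did not meet the criterion.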

How the results depend on the processing

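None of the 9 genes was called under any of the 18 alternatives. No direction reversed, and 153 of 153 log2 fold changes, from the 17 alternatives that refit them, stayed on the same side of the criteria. The lowest adjusted p was 0.0599 (Alas2 without T1-4). Of the 9 genes, up to 1 had an unadjusted p under 0.05, except without T1-4, where 7 had. Over all genes, the calls moved from 200 to 425 with DESeq2's Wald test, 328 with limma-voom, 24 (without S1-4) to 302 (without T1-5) with a sample left out, 0 against the S1 sham samples alone (edgeR, 1071 genes at an unadjusted p under 0.05) and 2 against the S3 samples alone. The cause was not tested. Leaving a sample out gave a β-type share difference of 3.59 to 8.8 points and an α-type one of 0.196 to 4.95. No paired analysis was possible because the replicate numbers follow accession order and pair no samples. Hbb-bh1 and Klf1 are limited by depth.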

Other observations

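Granulocyte genes mark a white cell type of the blood. The calprotectin subunit S100a9 was at 0.277, 0.519, 0.392 and 0.428 CPM in S1-4, S1-6, S3-1 and S3-4, and at 0.6, 5.78, 0.337 and 17.8 CPM in T1-1, T1-3, T1-4 and T1-5. The other subunit, S100a8, was at 4.06 CPM in T1-3 and 10.7 CPM in T1-5, against 0.525 CPM in T1-1. Neither was called (edgeR adjusted p = 0.138 and 0.343). T1-1 had globin levels near those of T1-5 with granulocyte genes in or close to the sham range. The summed level of the granulocyte list was 4.42 to 6.12 CPM in sham and 3.67 to 43.1 CPM in IUGR samples. Most of the sham sum was Prtn3, at 2.77 to 4.79 CPM in sham and 1.95 to 3.96 CPM in IUGR samples (log2 fold change -0.12, SE 0.31). Prtn3 overlaps Plppr3, so some of its counts could come from that gene.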
